A study of Mus musculus with 8 samples.

Results

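Binding of the glucocorticoid receptor (GR) and of FOXO1 was described around 9 autophagy genes of the mouse liver: Ulk1, Ulk2, Becn1, Atg14, Wipi1, Map1lc3b, Gabarapl1, Sqstm1 and Tfeb. The genes were taken as a named set, chosen with earlier results of these data known, of 21938 protein-coding genes on chromosomes 1 to 19, X and Y. Peaks of 6 GR lists that overlapped were merged into sites, and every site centred within 50 kb of the annotated start of a member gene was taken, which gave 99 of the 51431 GR sites of the series. The same window held 21 of the 8068 regions of a FOXO1 list. No site lay within 50 kb of more than 1 of the 9 genes, whereas 52 of the 99 sites (52.5%) had their own member as the nearest protein-coding gene start and the others lay nearer to a neighbour.

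The libraries came from chromatin immunoprecipitation and sequencing (ChIP-seq) of livers of male C57BL/6J mice. Control mice (ctrl.) were fed at night only, calorically restricted mice (cal. res.) received a reduced daily ration that was cut stepwise, and the CORT mice were fed at night and injected daily with corticosterone, the main glucocorticoid of mice. Each of the 3 groups had 2 GR libraries, described as biological replicates. FOXO1 was precipitated from cal. res. livers only, and its 2 libraries were merged before peaks were called, so that it had neither a replicate spread nor a control group. Peak lists carry no expression values, so the tissue label was not checked against marker genes.

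Autophagy encloses cytoplasm in a double membrane, the autophagosome, and delivers it to the lysosome for degradation. In the liver it is known to supply amino acids, lipids and glucose precursors during fasting. GR is a hormone-activated transcription factor that binds paired copies of a short half-site, and FOXO1 is a forkhead factor that enters the nucleus when insulin signalling is low. Both are known regulators of the hepatic fasting response.

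The lists differed in length, from 12458 regions in ctrl. replicate 2 to 39136 in CORT replicate 2. The other libraries held 36234 regions (ctrl. replicate 1), 22707 and 18747 (cal. res.) and 29473 (CORT replicate 1). The library names had 2 styles: ctrl. replicate 2 and both cal. res. libraries shared one, and ctrl. replicate 1 and both CORT libraries the other. Cal. res. and CORT therefore cannot be told apart from the name style, and only ctrl. had a library in each. Strength was read as the within-list percentile, the rank of a region by fold enrichment among all regions of its own library from 0 to 100, because fold enrichment is comparable only within a list.

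Sequences are shown for 7 sites that the descriptions below turn on: the 3 sites upstream of Map1lc3b with the highest-ranked FOXO1 regions, the site at the Gabarapl1 start, and the strongest site with a FOXO1 region near Ulk1, Atg14 and Sqstm1. Each is the 200 bp around the GR summit in the library where the site ranked highest, read from the plus strand of GRCm38.p6 (the mm10 build) as given by RefSeq. The label of a window gives the place of the centre of its whole site, and the window can lie away from that centre. The Gabarapl1 window ended upstream of the annotated gene start, position 129533160. The Map1lc3b window labelled 10.7 kb lay nearer to the gene start than its site centre did. Capitals mark a GR half-site (AGAACA), a pair of facing half-sites (AGAACA and TGTTCT with 3 bases between them and at most 2 mismatches), a forkhead motif (TGTTTAC), an E-box (CACGTG) or a STAT motif (TTC and GAA with 3 bases between them) on either strand.
Map1lc3b, 27.0 kb upstream, chr8:121563109-121563308: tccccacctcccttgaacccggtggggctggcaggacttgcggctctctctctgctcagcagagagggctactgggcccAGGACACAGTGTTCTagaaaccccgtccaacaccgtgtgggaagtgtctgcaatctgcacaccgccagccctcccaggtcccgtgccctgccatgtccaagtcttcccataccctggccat
Map1lc3b, 10.7 kb upstream, chr8:121580568-121580767: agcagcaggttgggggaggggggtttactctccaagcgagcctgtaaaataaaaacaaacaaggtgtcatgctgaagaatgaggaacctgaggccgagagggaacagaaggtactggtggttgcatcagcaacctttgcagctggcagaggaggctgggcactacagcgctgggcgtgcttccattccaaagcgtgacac
Map1lc3b, 4.77 kb upstream, chr8:121585374-121585573: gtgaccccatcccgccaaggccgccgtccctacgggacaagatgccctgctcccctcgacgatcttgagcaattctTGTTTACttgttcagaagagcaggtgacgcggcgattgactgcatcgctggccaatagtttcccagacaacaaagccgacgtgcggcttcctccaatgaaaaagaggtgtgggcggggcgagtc
Gabarapl1, gene start, chr6:129532717-129532916: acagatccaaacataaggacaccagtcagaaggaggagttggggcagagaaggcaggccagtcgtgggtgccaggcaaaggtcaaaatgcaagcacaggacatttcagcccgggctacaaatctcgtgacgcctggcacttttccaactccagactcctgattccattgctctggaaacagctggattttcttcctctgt
Ulk1, 1.92 kb downstream, chr5:110808201-110808400: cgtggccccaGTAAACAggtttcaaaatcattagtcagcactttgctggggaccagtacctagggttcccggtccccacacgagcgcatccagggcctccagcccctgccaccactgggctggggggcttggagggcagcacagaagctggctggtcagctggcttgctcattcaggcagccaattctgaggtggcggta
Atg14, 36.9 kb downstream, chr14:47533724-47533923: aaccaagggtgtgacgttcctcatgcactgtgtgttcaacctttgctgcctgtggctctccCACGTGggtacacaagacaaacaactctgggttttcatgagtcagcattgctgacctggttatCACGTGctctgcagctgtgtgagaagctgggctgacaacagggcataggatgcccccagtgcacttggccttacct
Sqstm1, 25.9 kb downstream, chr11:50184887-50185086: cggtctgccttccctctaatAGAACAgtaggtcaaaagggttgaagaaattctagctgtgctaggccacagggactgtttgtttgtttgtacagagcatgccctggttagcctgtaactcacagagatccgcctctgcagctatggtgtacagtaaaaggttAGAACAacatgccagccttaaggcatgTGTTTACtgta

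The window 27.0 kb upstream of Map1lc3b held a GR pair with 1 mismatch in 12 letters. The window 4.77 kb upstream held 1 forkhead motif, as did the Ulk1 window on the other strand. The Atg14 window held 2 E-boxes, the core sequence that clock and MiT/TFE factors bind, and the Sqstm1 window held 2 GR half-sites and 1 forkhead motif. None of the searched letters occurred in the other 2 windows. Over all 99 sites, a half-site was found in 19 (19.2%) against 18.4% of all 51428 windows that could be read, a pair in 4 (4.04%) against 3.35%, a forkhead motif in 5 (5.05%) against 5.19%, an E-box in 9 (9.09%) against 4.72%, and a STAT motif in 6 (6.06%) against 8.16%. Among the 19 sites that overlapped a FOXO1 region, 3 (15.8%) held the forkhead motif against 13.9% of all such sites. The pair overlaps the half-site motif, so those 2 counts are not independent.

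**Figure D1:**
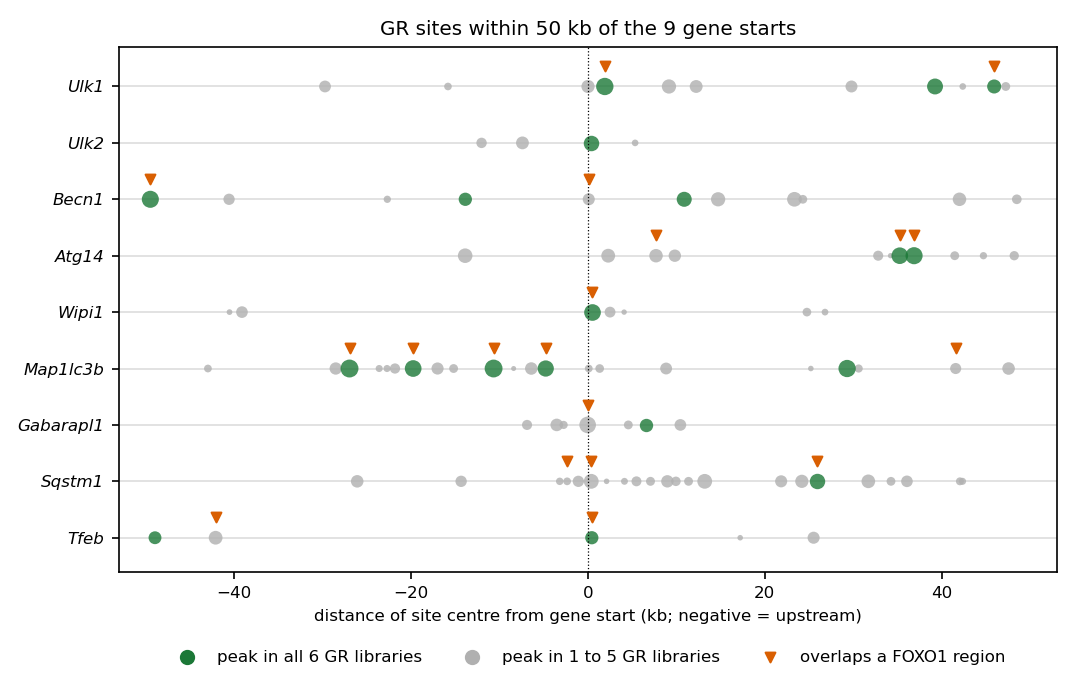
Each row is a gene and each circle a GR site, placed by the distance of its centre from the gene start in kb (negative is upstream), with the area growing with the mean within-list percentile over the libraries that had a peak. Green circles are the 19 sites with a peak in all 6 GR libraries, grey circles the other 80, and orange triangles the 19 sites that overlap a FOXO1 region. The row of Map1lc3b has 4 green circles with triangles upstream of the start, and the row of Ulk2 has no triangle.

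The 9 genes lay in regions with many GR sites. They were chosen with earlier results of these data known, so the shares beside them describe the set and test nothing. They had a median of 11 sites within 50 kb against a median of 3 over all protein-coding genes, from 4 at Ulk2 and 5 at Tfeb to 21 at Map1lc3b and 22 at Sqstm1. Sqstm1 and Map1lc3b had more sites than 99.3% and 99.1% of genes. All 9 had a site that both cal. res. libraries held, against 47.2% of genes, and 8 of 9 had a FOXO1 region, against 33.3% of genes. Ulk2 had none.

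A large part of the 99 sites rested on few libraries. A peak in 1 library only was found at 35 sites (35.4%, against 37.4% of all sites), of which 20 were in CORT replicate 2 and 9 in ctrl. replicate 1, the 2 longest lists. A peak in all 6 libraries, so that all 3 groups held the site, was found at 19 (19.2%, against 15.7%). Centres fell in an intron at 61 sites, in an untranslated region at 11, in another exon at 10 and between genes at 17. At 8 of the 9 genes, all but Atg14, a site of any library was centred within 1 kb of the start, against 45.7% of genes, and at 4 of them both cal. res. libraries held one there, against 17.5%.

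A site counted as held by a group if neither library of that group lacked a peak in it. By that rule ctrl. held 27 of the 99 sites (27.3%, against 21.4% of all sites), cal. res. 27 (27.3%, against 27.9%) and CORT 44 (44.4%, against 43.7%). With the 12458 regions of smallest p-value in each library, 45 sites remained near the 9 genes, of which ctrl. held 18, cal. res. 17 and CORT 24. The shares of all sites in that setting were 36.04%, 42.5% and 42.2%, beside 40%, 37.8% and 53.3% near the 9 genes.

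**Figure D2:**
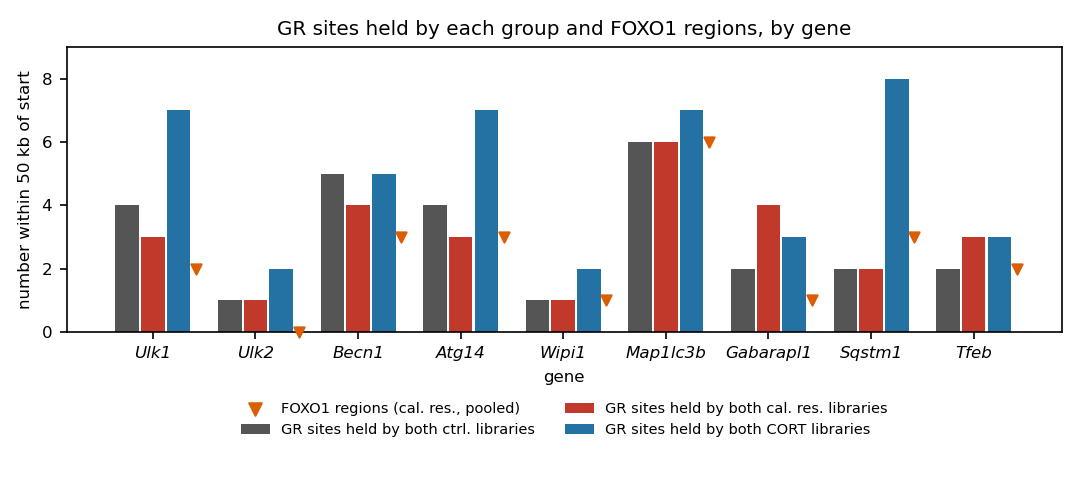
Bars give the number of GR sites within 50 kb of each gene start that both libraries of ctrl. (grey), cal. res. (red) or CORT (blue) held, on an axis from 0, and triangles the number of FOXO1 regions in the same window. Sqstm1 shows 8 sites held by CORT against 2 by each other group, Gabarapl1 has 4 held by cal. res. against 2 by ctrl. and 3 by CORT, and the 6 FOXO1 regions at Map1lc3b are the highest number.

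Sites gained over ctrl., held by a treated group and not by ctrl., numbered 7 for cal. res. (7.07%, against 11.5% of all sites) and 19 for CORT (19.2%, against 24.3%). The gains turned on the shortest list. Ctrl. replicate 1 had a peak at all 7 gained sites of cal. res. and at 18 of the 19 of CORT, and none had a peak in ctrl. replicate 2. Without ctrl. replicate 2 the gains numbered 0 and 1, which follows from these counts and is not a separate result. Over all sites of the series, 67.6% had a peak in ctrl. replicate 1 and 22.3% in ctrl. replicate 2. The shares over all gained sites are not given here, so these counts do not set the member sites apart. Of the 7 cal. res. gains, 6 were also held by CORT, and the exception lay 6.88 kb upstream of Gabarapl1.

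For sites with a peak in all 6 libraries, the percentiles were compared between groups with limma across all 8097 such sites. None of the 19 near the 9 genes passed an adjusted p of 0.05 in any of the 3 comparisons. In these lists 0% of all 8097 sites were called, higher or lower, between cal. res. and ctrl., between CORT and ctrl., and between cal. res. and CORT. At an unadjusted p under 0.05 there were 511, 320 and 989 sites in these comparisons, of which 1, 1 and 2 lay near the 9 genes. The smallest adjusted p of limma at a member site was 0.781 for cal. res. against ctrl., 0.765 for CORT against ctrl. and 0.349 for cal. res. against CORT. In simulated data of the same 8097 sites for cal. res. against ctrl., 4.48% of differences of 10 points, 25.4% of those of 30 points and 31.8% of those of 60 points were recovered, so that a missing call with 2 libraries a group does not show equal binding.

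The initiation kinases came first in the pathway. Ulk1 (chr5:110784488-110810097, minus strand) encodes the kinase that starts autophagosome formation and is inhibited by mTORC1. Its strongest site, chr5:110807164-110809199, lay in a Ulk1 intron 1.92 kb downstream of the start and overlapped a FOXO1 region at percentile 67.7 of the FOXO1 list. The percentiles there were 93.0 and 94.4 for the ctrl. pair, 93.6 and 93.5 for the cal. res. pair, and 89.9 and 94.9 for the CORT pair. The 3 groups overlapped, and cal. res. minus ctrl. was -0.15 points (SE 2.83, limma, adjusted p = 0.996). At the start itself, chr5:110809810-110810354, ctrl. had peaks at 35.6 and 48.7 and CORT at 73.4 and 48.4, and neither cal. res. library had a peak. That pattern, a peak in the 4 ctrl. and CORT libraries and in neither cal. res. library, was counted after these values were seen and was found at 4 of 25 member sites with a peak in those 4 libraries (16%), against 5.36% of 9942 such sites. The other 3, of which those at Becn1 and Atg14 are named after their values were seen, lay near Becn1 (42.02 kb downstream), Atg14 (9.83 kb downstream) and Map1lc3b (41.6 kb downstream). Another Ulk1 site, 45.9 kb downstream in an intron of Ep400, had a FOXO1 region at percentile 66.7 and ranged from 19.3 in CORT replicate 1 to 80.9 in cal. res. replicate 2. Its groups overlapped.

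Ulk2 (chr11:61775649-61855073, minus strand), the paralogous kinase, had the fewest sites. Only the site at its start, chr11:61853880-61855596, was held by all 3 groups. Percentiles were 93.0 and 77.7 for the ctrl. pair, 51.3 and 56.3 for the cal. res. pair, and 93.2 and 67.8 for the CORT pair. Both cal. res. libraries lay below the other 4, and the means were 85.4 ± 10.9 in ctrl., 53.8 ± 3.54 in cal. res. and 80.5 ± 18 in CORT (SD, n = 2 each). The difference between cal. res. and ctrl. was -31.54 points (SE 17.02, limma), larger than the SD of either group, and did not pass the test (adjusted p = 0.811). Among sites with a peak in all 6 libraries, both cal. res. libraries ranked below the other 4 at 4 of 19 member sites (21.1%), against 15.7% of 8097, and above the other 4 at 0 of 19, against 3.58%.

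Becn1 and Atg14 encode subunits of the class III phosphatidylinositol 3-kinase complex that marks the forming membrane. At the start of Becn1 (chr11:101285952-101302286, minus strand) the site chr11:101301919-101302452 had a peak only in ctrl. replicate 1 (22.7) and CORT replicate 2 (61.4). A FOXO1 region lay over it at percentile 48.4, although neither cal. res. GR library had a peak there. The strongest Becn1 site, chr11:101350665-101352870, lay 49.5 kb upstream between genes, with G6pc, the catalytic subunit of glucose-6-phosphatase, as the nearest protein-coding start at 15.8 kb. It ranked at 97.1 and 87.4 for the ctrl. pair, 95.1 and 90.6 for the cal. res. pair, and 76.7 and 94.1 for the CORT pair, and covered 2 FOXO1 regions, the stronger at percentile 63.4. The groups overlapped there. The gain of cal. res. at Becn1, 14.7 kb downstream, ranked at 76.7 for ctrl. replicate 1, at 28.3 and 53.3 for the cal. res. pair and at 76.0 and 70.5 for the CORT pair.

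Atg14 (chr14:47540893-47570649, minus strand) encodes the subunit that directs the complex to autophagosome formation. All 11 of its sites had Atg14 as the nearest protein-coding start. The strongest, chr14:47533149-47534371, lay between genes 36.9 kb downstream of the start, beyond the end of the gene. Percentiles were 98.7 and 69.3 for the ctrl. pair, 89.6 and 91.1 for the cal. res. pair, and 96.5 and 98.1 for the CORT pair, and its FOXO1 region stood at percentile 75.5. A neighbouring site 35.3 kb downstream ranked between 76.3 and 91.3 in the 6 libraries, with a FOXO1 region at percentile 54.1. The 3 groups overlapped at 35.3 kb. At 36.9 kb both CORT libraries ranked above both cal. res. libraries, and the ctrl. pair spanned them. Without ctrl. replicate 1, at 36.9 kb cal. res. minus ctrl. was 21.0 points, instead of 6.32 points (SE 8.11, limma, adjusted p = 0.875). CORT minus ctrl. was then 27.98 points. Without ctrl. replicate 2 both differences turned, to -8.35 points and -1.38 points. The site nearest the start, 2.3 kb downstream in an exon, had peaks at 33.4 and 37.1 in ctrl., 64.6 in cal. res. replicate 1 only, and 66.7 and 85.2 in CORT. Inside the gene, the site 7.71 kb downstream ranked at 77.0 in ctrl. replicate 1, at 1.06 and 37.1 for the cal. res. pair and at 72.4 and 83.4 for the CORT pair, under a FOXO1 region at percentile 19.8.

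Wipi1 (chr11:109573331-109611967, minus strand) encodes a protein that binds the lipid made by that kinase complex. Its strongest site was also the nearest, chr11:109610509-109612412, centred in an intron 507 bp downstream of the start. It ranked at 85.4 and 81.8 for the ctrl. pair, 71.9 and 83.4 for the cal. res. pair, and 96.9 and 94.7 for the CORT pair, with a FOXO1 region at percentile 34.5. Both CORT libraries lay above the other 4, as they did at 4 of 19 member sites with a peak in all 6 libraries (21.1%), against 20.8% of 8097. Means were 83.6 ± 2.52 in ctrl., 77.7 ± 8.17 in cal. res. and 95.8 ± 1.56 in CORT (SD, n = 2 each). Cal. res. minus CORT was -18.11 points (SE 7.86, limma, adjusted p = 0.406). Of the other 6 Wipi1 sites, no group but CORT held any, and CORT held 1.

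**Figure D3:**
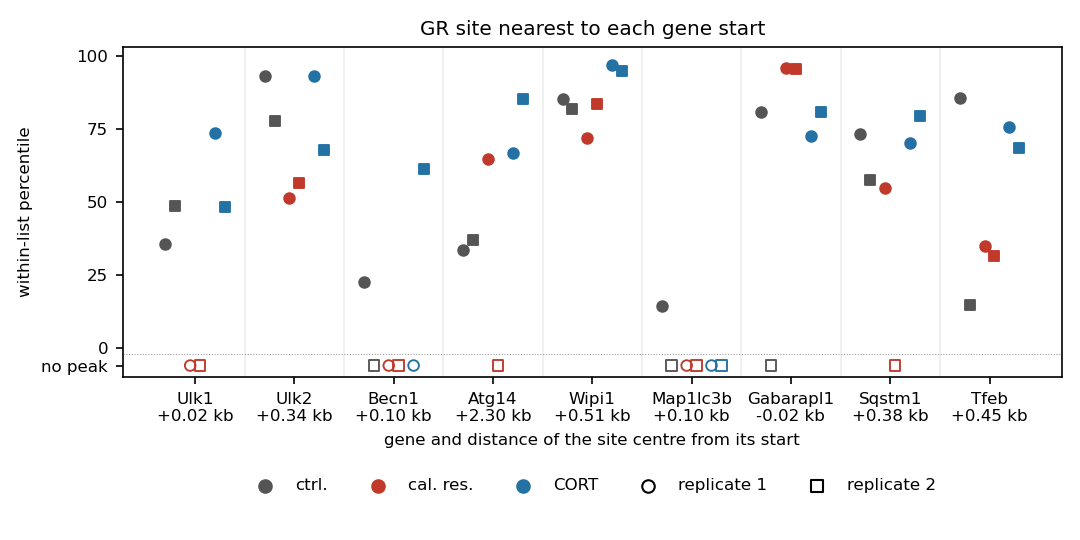
Points give the within-list percentile of the GR site nearest to each gene start in the 6 libraries (circles replicate 1, squares replicate 2, with ctrl. grey, cal. res. red and CORT blue), and open symbols on the lowest line mark a library with no peak there. At Gabarapl1 both cal. res. points, at 95.8 and 95.3, stand above every other library, and at Ulk2 both cal. res. points, at 51.3 and 56.3, stand below the other 4.

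Map1lc3b and Gabarapl1 encode ubiquitin-like proteins of the Atg8 family, which are joined to lipid in the growing membrane and recruit cargo. Map1lc3b (chr8:121590361-121598760, plus strand) had the strongest GR binding of the set and the 3 highest-ranked FOXO1 regions. The site chr8:121562418-121564392, 27.0 kb upstream in an intron of Fbxo31, had fold enrichments of 102.7 and 40.1 for the ctrl. pair, 114 and 77.3 for the cal. res. pair, and 116 and 163 for the CORT pair. In each list that placed it at percentile 99.8 or above. The FOXO1 region there had a fold enrichment of 15.5, at percentile 96.3.

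The second site, chr8:121578130-121581268, lay 10.7 kb upstream and 0.893 kb from the start of Fbxo31, and ranked between 98.5 and 99.4 in the 6 libraries. It covered 2 FOXO1 regions, the stronger at percentile 97.5 with a fold of 17.7. The third, chr8:121585123-121586068, lay 4.77 kb upstream and had Map1lc3b as its nearest start. Its GR percentiles were lower, at 73.1 and 82.7 for the ctrl. pair, 80.1 and 82.2 for the cal. res. pair, and 76.3 and 91.9 for the CORT pair, but its FOXO1 region had the highest fold of the 21, 21.1, at percentile 98.7. This is the window printed above with the forkhead motif. No difference at the 3 sites passed the test: cal. res. minus ctrl. was -0.04 points (SE 0.84), 0.32 points (SE 1.01) and 3.26 points (SE 12.09), with adjusted p of 0.997, 0.963 and 0.973 in limma. The first 2 lay so close to the top of the scale that percentiles could hardly differ there, although both CORT libraries ranked above both cal. res. libraries at the first. On log2 fold enrichment centred on the median of each list, cal. res. minus ctrl. was 0.49 (SE 0.30, adjusted p = 0.493) at 27.0 kb and 0.80 (SE 0.33, adjusted p = 0.301) at 10.7 kb, and cal. res. minus CORT at 10.7 kb was 0.79 (SE 0.33, adjusted p = 0.172).

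A further upstream site, 19.8 kb from the Map1lc3b start in an intron of Fbxo31, ranked at 89.6 and 52.9 for the ctrl. pair, 90.0 and 91.6 for the cal. res. pair, and 95.9 and 96.4 for the CORT pair, with a FOXO1 region at percentile 49.7. Here ctrl. replicate 2 stood apart from the other 5 libraries. With that library as the only ctrl. sample, cal. res. minus ctrl. was 37.9 points instead of 19.58 (SE 11.29, limma, adjusted p = 0.811). CORT minus ctrl. was then 43.3 points. With ctrl. replicate 1 as the only ctrl. sample the differences were 1.25 points and 6.63 points. The start of Map1lc3b itself had a GR peak in ctrl. replicate 1 only, at 14.4, and no FOXO1 region. The remaining FOXO1 region, 41.6 kb downstream in an intron of Zcchc14, stood at percentile 16.5 and had no cal. res. GR peak. The cal. res. gain of this gene, 6.40 kb upstream, ranged from 13.5 to 78.7 over 5 libraries.

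At Gabarapl1 (chr6:129533160-129542346, plus strand) the site with the highest mean percentile over the libraries with a peak lay at the promoter. The site chr6:129532495-129533778 was centred 24 bp from the start, in an intron of the divergent non-coding gene 1700101I11Rik, and overlapped a FOXO1 region at percentile 42.1. Fold enrichment was 21.9 and 16.7 in cal. res., 9.86 in ctrl. replicate 1, and 9.47 and 10.3 in CORT, with no peak in ctrl. replicate 2. The percentiles were 95.8 and 95.3 in cal. res. (95.6 ± 0.369, SD, n = 2), 80.8 in ctrl. replicate 1, and 72.6 and 80.9 in CORT (76.7 ± 5.89, SD, n = 2). Both cal. res. libraries ranked above every other library with a peak at this site alone of 27 member sites held by cal. res. (3.7%), against 5.18% of 14293. The missing peak kept it out of the test above. With absent peaks set to percentile 0, an alternative chosen after seeing the data, cal. res. minus ctrl. was 55.1 points (SE 23.2, limma, adjusted p = 0.96) and cal. res. minus CORT 18.8 points (SE 23.2, adjusted p = 0.795).

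The other cal. res. gain at Gabarapl1, 6.88 kb upstream between genes, ranked at 54.6 in ctrl. replicate 1, 25.3 and 24.5 in cal. res. and 7.31 in CORT replicate 1. Inside the gene, 6.56 kb downstream, a site singled out after its values were seen ranked at 30.8 and 28.5 for the ctrl. pair, 56.9 and 43.1 for the cal. res. pair, and 74.5 and 83.9 for the CORT pair. The 3 groups did not overlap there, with CORT highest. CORT minus ctrl. was 49.56 points (SE 15.94, limma, adjusted p = 0.765).

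Sqstm1 (chr11:50199366-50210827, minus strand) encodes p62, a receptor that links ubiquitinated cargo to the Atg8 proteins. It had the most sites, 22, of which CORT held 8 and ctrl. and cal. res. 2 each, and 20 had a peak in CORT replicate 2. With equal list lengths these counts were 7 sites, 3 held by CORT, 2 by ctrl. and 1 by cal. res. The site at the start, chr11:50209384-50211511, ranked at 73.4 and 57.5 in ctrl., 54.7 in cal. res. replicate 1 only, and 70.1 and 79.3 in CORT, with a FOXO1 region at percentile 23.7. The strongest, chr11:50184432-50185354, lay 25.9 kb downstream in an intron of Mrnip. It ranked at 79.3 and 22.9 for the ctrl. pair, 78.6 and 89.4 for the cal. res. pair, and 75.9 and 89.4 for the CORT pair, under a FOXO1 region at percentile 74.0. As upstream of Map1lc3b, ctrl. replicate 2 alone was low. With both ctrl. libraries, cal. res. minus ctrl. was 32.91 points (SE 21.10, limma, adjusted p = 0.811) and CORT minus ctrl. 31.51 points (adjusted p = 0.765). With ctrl. replicate 2 as the only ctrl. library, these were 61.1 points and 59.7 points. With ctrl. replicate 1 as the only one, they were 4.74 points and 3.34 points. The other FOXO1 region, 2.3 kb upstream in Mgat4b, met a GR site with peaks only in cal. res. replicate 1 (12.6) and CORT replicate 2 (15.5), and the cal. res. gain 5.50 kb downstream ranked between 6.64 and 56.9 in 5 libraries.

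Tfeb (chr17:47737030-47792419, plus strand) encodes a transcription factor of autophagy and lysosome genes that mTORC1 keeps in the cytoplasm. The site at its start, chr17:47736730-47738224, ranked at 85.7 and 14.8 for the ctrl. pair, 34.9 and 31.5 for the cal. res. pair, and 75.6 and 68.6 for the CORT pair, with a FOXO1 region at percentile 19.8. The ctrl. libraries spanned the values of both other groups, with a mean of 50.2 ± 50.1, against 33.2 ± 2.36 in cal. res. and 72.1 ± 4.98 in CORT (SD, n = 2 each). Without ctrl. replicate 1, CORT minus ctrl. was 57.3 points, instead of 21.88 (SE 23.20, limma, adjusted p = 0.787). Without ctrl. replicate 2 it turned to -13.5 points. In that setting cal. res. minus ctrl. was -52.5 points, instead of -17.05 (SE 23.20, limma, adjusted p = 0.88). The cal. res. gain 42.1 kb upstream in Frs3, nearest to Prickle4, ranked at 80.0 for ctrl. replicate 1 and at 84.0 and 80.9 for the CORT pair. The cal. res. pair ranked lowest of these 5 libraries, at 6.46 and 31.7. Its FOXO1 region stood at percentile 47.7. A site 49.0 kb upstream at Tomm6, singled out after its values were seen, ranked at 56.6 and 61.8 for the ctrl. pair, 27.5 and 2.82 for the cal. res. pair, and 61.4 and 82.7 for the CORT pair. It had the smallest adjusted p of the 19 tested sites, with cal. res. minus CORT at -56.87 points (SE 17.54, limma, adjusted p = 0.349).

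**Figure D4:**
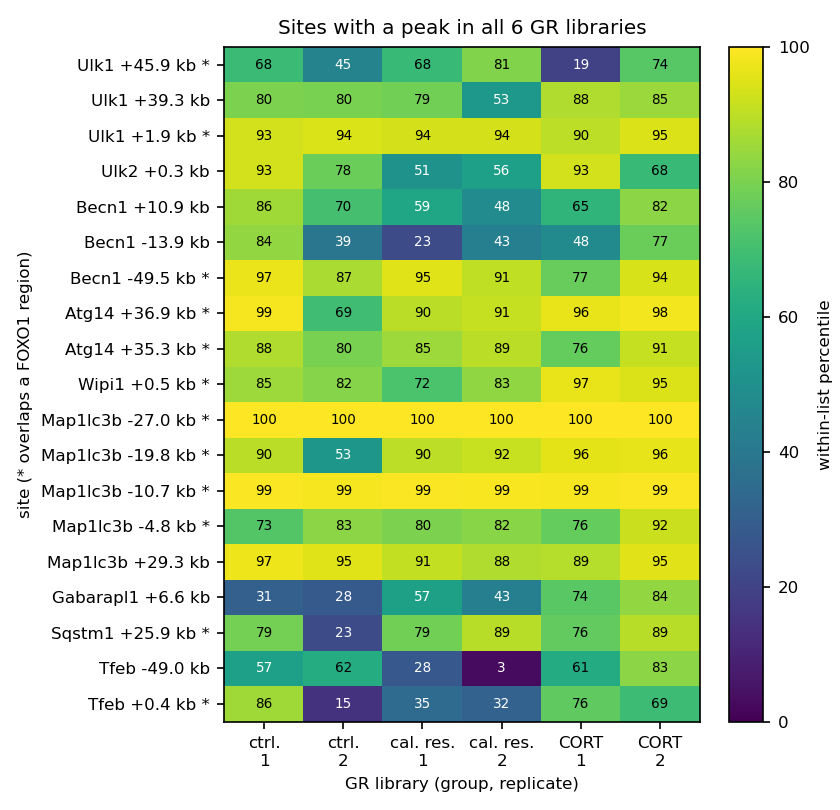
Rows are the 19 sites near the 9 genes with a peak in all 6 GR libraries, named by gene and distance from its start in kb, columns are the libraries, and colour and number give the within-list percentile from 0 to 100. The Map1lc3b rows at -27.0 and -10.7 kb hold 98.5 to 100 in every library, and in the Map1lc3b row at -19.8 kb and the Sqstm1 row ctrl. replicate 2 is the lowest of the 6.

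All 21 FOXO1 regions near the 9 genes overlapped a GR site of at least 1 library. Over the series, 7133 of the 51431 GR sites overlapped one of the 8068 FOXO1 regions. The share of all FOXO1 regions with a GR site is not given here, so the count of 21 does not set the 9 genes apart. The GR sites involved numbered 19 (19.2%, against 13.9% of all sites), since 2 sites covered 2 regions each, and 8 of the 9 genes had at least 1. Within the 27 sites held by cal. res., 15 (55.6%) overlapped FOXO1, against 39.8% of all cal. res. sites. The other groups held most of the 19 as well, with 14 held by ctrl. and 17 by CORT. The shares of all sites with FOXO1 that these groups held are not given here. The median percentile of the 21 regions in the FOXO1 list was 48.4, and outside Map1lc3b none ranked above 75.5.

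GR peaks ranked higher at member sites with FOXO1 than at those without in every library, including ctrl. and CORT. The medians were 83.1 against 32.0 and 74.7 against 44.0 in ctrl., 80.1 against 28.3 and 89.5 against 39.6 in cal. res., and 76.3 against 50.7 and 89.4 against 46.0 in CORT. The same held over all sites, where medians with FOXO1 lay between 69.3 and 84.5 and medians without between 39.1 and 43.4.

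Counts were lower around 48 other genes of the pathway, which had a median of 5 sites within 50 kb, from 0 to 32. Both gene lists were chosen with earlier results of these data known, so this contrast was not a test. The 48 genes had 301 distinct sites in all, none shared with the 9 genes. Ctrl. held 73 of the 301 sites (24.3%), cal. res. 88 (29.2%) and CORT 155 (51.5%), and 46 (15.3%) overlapped FOXO1. Uvrag, a subunit of the class III kinase complex of endosomes, had the most, with 32 sites and 8 FOXO1 regions. Nrbf2, Atg2a, Atg4a, Calcoco1 and Fundc1 had no GR site, although Calcoco1 and Fundc1 each had 1 FOXO1 region. A FOXO1 region lay near 21 of the 48 genes, against 33.3% of all protein-coding genes. By class, these were 6 of 7 cargo receptors, 5 of 11 conjugation genes, 3 of 8 membrane supply genes and 3 of 7 lysosome and fusion genes. They also included 1 each of 3 initiation genes, 6 kinase complex genes, 3 Atg8 genes and 3 MiT/TFE genes. Among receptors, Bnip3, a mitophagy receptor, had 11 sites and 6 FOXO1 regions. None of the 54 sites with a peak in all 6 libraries near these genes passed an adjusted p of 0.05 in limma in either direction in any comparison, with median differences of -2.65 points for cal. res. against ctrl., 3.27 for CORT against ctrl. and -11.4 for cal. res. against CORT. Beside them, the medians were -0.0361, 0.997 and -5.37 points over the 19 member sites and 0.141, 7.80 and -6.47 over all 8097.

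At the edge of the 50 kb window, the last site inside was that at 49.5 kb from Becn1, with a mean percentile of 90.2 over 6 libraries, followed by the site 49.0 kb from Tfeb at 48.8. The first outside lay 51.5 kb from Becn1, with 48.9 over 4 libraries.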

How the data were processed

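GR peaks were taken from 6 mouse liver libraries and FOXO1 peaks from 1 list that merged 2 cal. res. libraries. Titles gave the groups. Per the methods, the authors used BWA for alignment to mm10, Picard and Bamtools to drop duplicate and multiply mapped reads, MACS2 to call peaks and bedtools to filter blacklisted regions. Whether that filter reached the FOXO1 list, and whether an input served as control, is not given in the sources used here. Fold enrichment, as deposited, is the ratio of pileup at the summit to the background around it. P-values and q-values were deposited as -log10. The largest q-values were 0.0994 to 0.0998 in the GR lists and 9.84e-06 in the FOXO1 list, so absence of a peak means different things in each.

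Peaks of 1 interval were reduced to that with the highest fold. Regions sharing at least 1 bp were merged into sites, which carried the highest fold per library. Gene starts came from GENCODE M21 (basic set). Read counts per range, which the study also used to call a group's peaks, and read totals were not analysed here, so depth is unknown and list length stands in its place.

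Percentiles were fitted with limma 3.58.1 (R 4.3.3; 3 groups, empirical Bayes with trend, Benjamini-Hochberg over 8097 sites) and the fit was tested on simulated data. Other values came from Python 3.11.15, pandas 2.3.3, NumPy 2.4.6, pysam 0.24.0 and matplotlib 3.10.9. The p-values measure the spread between libraries. Members and gene lists were chosen with earlier results of these data known. Sites were named by rule: at each gene the nearest, the highest mean percentile, each with a FOXO1 region and each gained in cal. res. Exceptions are said to be chosen after their values were seen. The main fit did not treat libraries of equal replicate number as paired. Alternatives covered q limits, list length, overlap, window, transcript starts, the group rule, library name style, the scale of the fit, and leaving out each library.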

Additional observations from a re-analysis of the deposited data

How the results depend on the processing

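With 2 libraries a group, the counts near the 9 genes moved with list length and window, and the peak lists give no read depth. Of 197 values for 15 results, 148 stayed within 1.5 times the reported count and 49 did not. Some of the 148 could hardly change, such as the sites held by a group when a library of another group was left out. An unchanged count of 0 was also among them, so the 148 do not measure stability. The number of sites, 99, became 57 at q of at most 1e-05, 45 with equal list lengths, 61 at 25 kb and 161 at 100 kb. Sites held by ctrl. (27) became 13 at that q, 15 at 25 kb and 71 with a peak in either library. Sites held by cal. res. (27) became 16, 17 and 44 in those settings, and 17 with equal lengths. Sites held by CORT (44) became 24 with equal lengths, 28 at 25 kb and 88 with either library, and sites held by all 3 groups (19) became 12 at q of at most 1e-05, 10 at 25 kb and 40 with either library. Cal. res. gains (7) became 4 at that q, 2 with equal lengths, 13 at 100 kb, 4 with either library and 0 where no ctrl. peak was allowed. CORT gains (19) became 8 with equal lengths, 32 at 100 kb, 1 where no ctrl. peak was allowed and 1 within the library name style, which left the 7 cal. res. gains as they were. Sites with FOXO1 (19) became 11 and FOXO1 regions (21) became 12 at 25 kb, and 9 regions were among the stronger 50%.

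Leaving out 1 library gave 80 to 99 sites, 27 to 70 held by ctrl. (70 without ctrl. replicate 2), 27 to 40 held by cal. res., 44 to 84 held by CORT (84 without CORT replicate 1), 0 to 18 cal. res. gains (0 without ctrl. replicate 2, 11 and 18 without cal. res. replicates 1 and 2) and 1 to 58 CORT gains (1 without ctrl. replicate 2, 58 without CORT replicate 1).

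In limma, the 0 calls over all sites became 22 for cal. res. against ctrl., 20 for CORT against ctrl. and 315 for cal. res. against CORT on centred log2 fold enrichment, of which 0 lay near the 9 genes. With name style as a term there were 1125 for cal. res. against ctrl., 3 of them near the 9 genes. For cal. res. against CORT there were then 195, 1 of them near (Atg14, 36.9 kb). That term rested on the ctrl. libraries alone, 1 of each style, so these calls cannot separate group from style. At the Atg14 site cal. res. minus CORT was 22.4 points with the term and -6.98 points without it. Leaving out 1 library gave 0 to 1099 calls for cal. res. against ctrl. and 0 to 1851 for CORT against ctrl. The 1099 and 1851, with 3 and 4 member sites, came without ctrl. replicate 1, which leaves a single ctrl. library assumed to vary like the other groups, and without ctrl. replicate 2 there was 1 call in each. The member sites were those at Map1lc3b (19.8 kb), Atg14 (36.9 kb) and Sqstm1 (25.9 kb) and, for CORT, the Tfeb start. With the replicate block there were 0 calls in the 3 comparisons. Deviations from group means correlated at -0.0469, -0.125 and 0.0737 between libraries of equal number. With 2 libraries a group, these values cannot exclude that libraries were processed in pairs. The causes of these differences were not tested.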
